A study of Mus musculus with 4 samples.

Results

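The transcripts described here belong to 38 genes of the p53 pathway, of apoptosis and of cellular senescence, chosen by gene symbol from a list, and all 38 were found among the 23107 genes of the deposited tables. They were measured by RNA sequencing of tdTomato-positive cells sorted from the dental follicles of mouse mandibular molars at postnatal day 8. The dental follicle is the mesenchymal sheath around a developing tooth. Conditional knockouts of Ptch1 (cKO, genotype Ptch1(-/-), libraries cKO_0 and cKO_1, n = 2) were set against conditional heterozygotes (cHet, genotype Ptch1(+/-), libraries cHet_0 and cHet_1, n = 2). Ptch1 encodes the receptor that holds hedgehog signalling off in the absence of ligand. Both groups received tamoxifen at postnatal day 3 and carried the tdTomato reporter, which the labels tie to PTHrP-positive follicle cells. Both also carried at least 1 targeted Ptch1 allele, so no wild type group enters the comparison. The sources used here give neither the Cre line, nor the deleted exons, nor the number of animals behind a library, so p-values measure no more than how far these libraries lie apart, and part of that may be technical.

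The transcription factor p53, encoded by Trp53, is held at low protein levels by the ubiquitin ligase MDM2 and its partner MDM4. After DNA damage or other stress it accumulates and raises transcription of genes that stop the cell cycle, repair DNA or start apoptosis, and Mdm2 itself is a target that closes a feedback loop. Because p53 is controlled mainly as a protein, the Trp53 transcript level alone does not report its activity, and the target genes are the usual readout. Apoptosis through mitochondria is set by the balance within the BCL2 family and ends in caspase activation, whereas senescence is a lasting cell cycle arrest in which the Cdk inhibitors of the Cdkn2a and Cdkn2b genes act through the retinoblastoma protein.

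P53 binds DNA as a tetramer at paired copies of a short element with a C and a G around 2 bases that are each A or T. The pair was searched for as CNNGNNNNNNCNNG, in which both N of each core had to be A or T and the 6 bases between the cores were free, in RefSeq windows from 250 bases before to 50 bases after each annotated start (GRCm38.p6). The pattern is its own reverse complement, so the search covered both strands. Of the 38 genes, 29 had a window, and the windows of Aen, Bbc3, Cdkn1a, Plk2 and Trp53 held the pair, 17.2% of the 29 against 8.19% of the 27025 genes with a window. A gene with several annotated starts, such as Aen, Bbc3 and Cdkn1a, has more windows that can hold a match. The shares were not adjusted for that. The 5 sequences are shown because they are the stretches of these windows that have the paired form, with the paired cores in capitals and 5′ to 3′ on the plus strand.
Cdkn1a, chr17:29090924-29090951: tcaggaaCATGtcttgaCATGttcagcc
Bbc3, chr7:16309482-16309509: ccgactgCAAGccccgaCTTGtccccag
Aen, chr7:78895933-78895960: agccgggCTTGtccgggCAAGgagcttc
Plk2, chr13:110395034-110395061: gctcgctCTTGctcgcaCAAGcgaagca
Trp53, chr11:69580280-69580307: ggaaggaCTTGcccttaCTTGttatggc
The Cdkn1a pair lay 48 to 35 bases before the more distal of its starts, which is 2790 bases upstream of the other. It was the only one of the 5 in which both cores read CATG, a form held by 0.712% of all 32851 windows. A match describes the letters in these windows and does not show binding. Trp53inp1, Zmat3, Rrm2b, Xpc, Ddb2, Pmaip1, Tnfrsf10b, Rb1 and Lmnb1 had no window.

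Values are the scaled counts that the authors deposited, whose scaling the sources used here do not describe, unless FPKM (fragments per kilobase of transcript, relative to the mapped fragments of the library) or a log2 fold change is named. Log2 fold changes subtract cHet from cKO after 3 was added to every scaled count. They come from limma fitted to the 14297 genes that reached 10 in 2 or more libraries, and SE is its standard error. Scaled totals were 69677070 and 70698316 in the cKO libraries and 69361760 and 71228342 in the cHet libraries. The libraries differed more in how many genes they held: 12192 and 11355 genes reached an FPKM of 1 in cKO, against 12360 and 9850 in cHet. In cHet_1, 1087 genes lay under 50 while the other 3 libraries each had at least 200, and 45, 59 and 8 genes did so in cKO_0, cKO_1 and cHet_0. Ptch1 was listed at 22420 and 23341 in cKO and at 12867 and 5438 in cHet. It is a hedgehog target itself, and a value per gene does not show which exons were read, so it does not check the deletion. Other hedgehog targets were also higher in both cKO libraries, Hhip at 175453 and 160516 in cKO and 62357 and 60651 in cHet, and Gli1 at 6388 and 6955 in cKO and 4132 and 3350 in cHet (log2 fold changes 1.45, SE 0.24, and 0.84, SE 0.34; adjusted p = 0.913 for each in limma).

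Of the 38 genes, 36 passed the filter and were tested, and none of them was called. In limma with Benjamini-Hochberg adjustment over all genes, the adjusted p lay under 0.05 for 0 genes with higher and 0 with lower values in cKO (lowest adjusted p = 0.913), and for 0 of all 14297 genes (0.00% in each direction). At an unadjusted limma p under 0.05 there was 1 higher gene, Plk2, and 1 lower gene, Ei24, against 1.54% higher and 1.49% lower over all genes. Groups were separate for 6 genes, all higher in cKO (Plk2, Ccng1, Bax, Pmaip1, Mcl1 and Tnfrsf10b) and for 5 that were lower (Ei24, Xpc, Trp53inp1, Bcl2l11 and Fas), against a background of 18.0% higher and 14.2% lower over all genes tested. These shares lie near the background. Log2 fold changes were positive for 15 and negative for 21 of the 36, with a median of -0.24, beside a median of 0.12 with 56.3% positive and 43.7% negative over all genes. With median-of-ratios scaling both medians shifted down, to -0.35 for the 36 genes and 0.02 for all genes. Without cHet_0, 1061 genes were called higher and 78 lower over all genes, without cKO_0 7 and 5, without cKO_1 10 and 32, and without cHet_1 0 and 0. None of the 36 was among them. In a bulk sample, fewer cells of a type and less RNA per cell cannot be told apart.

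The spread between libraries of a group was as large as most differences between groups. For 26 of the 36 genes the log2 gap between the libraries of 1 group exceeded the log2 fold change between groups, against 83.7% of all genes tested. The other 10 were Plk2, Bax, Pmaip1, Mcl1, Tnfrsf10b, Ei24, Xpc, Trp53inp1, Bcl2l11 and Fas. With 2 libraries a group, an exact permutation test cannot give a two-sided p below 0.333.

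**Figure D1:**
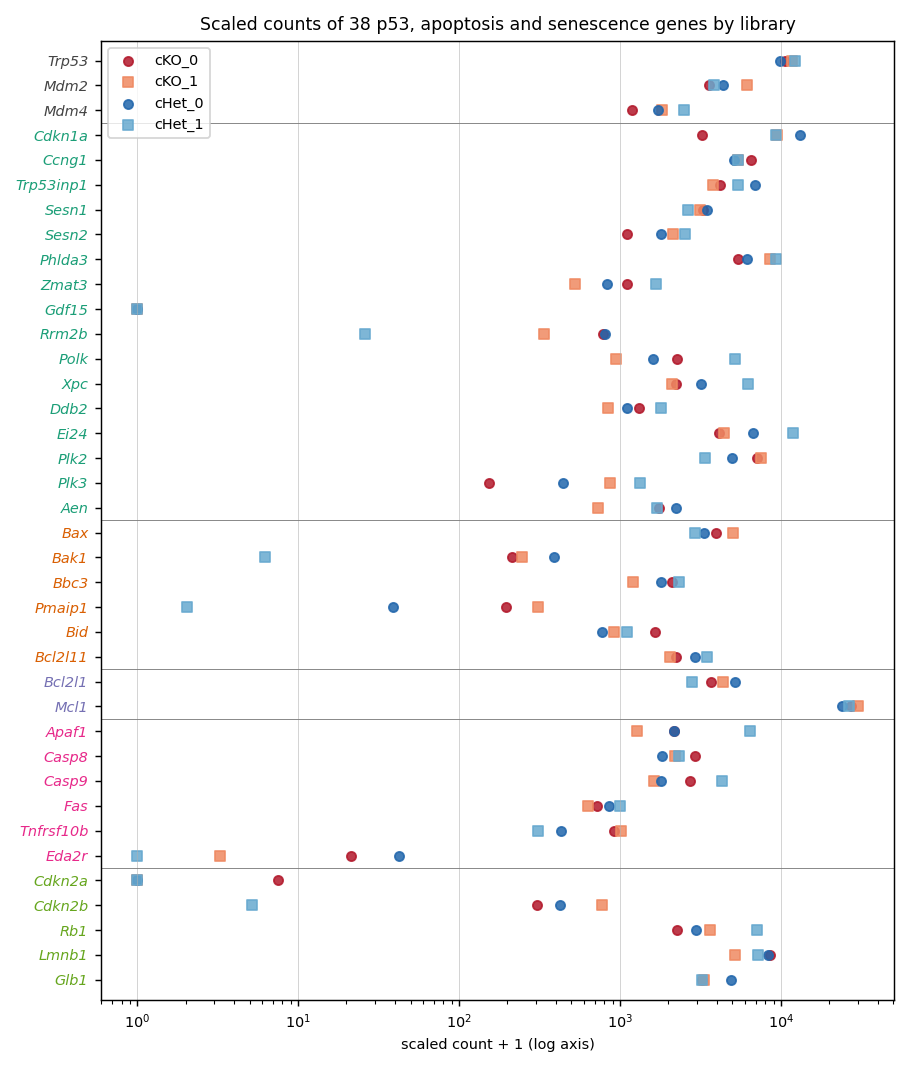
Scaled count plus 1 (log axis) of each of the 38 genes in cKO_0, cKO_1, cHet_0 and cHet_1, with grey lines between the roles and gene names coloured by role. The 4 points of most genes lie close together or interleave, and Rrm2b, Bak1, Pmaip1 and Cdkn2b have an isolated low cHet_1 point.

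Trp53 itself (chromosome 11, 69580359 to 69591873, mm10) was among the most abundant of the 38 genes per length and nearly level between groups. It was listed at 10535 and 11804 in cKO and at 9933 and 12325 in cHet, and in FPKM at 93.4 and 88.5 in cKO and at 86.2 and 92.6 in cHet. In scaled counts both cKO values lay between the cHet values. The log2 fold change was 0.01 (SE 0.27, 95% interval -0.61 to 0.63; adjusted p = 0.997 in limma). Its sign turned to -0.09 with median-of-ratios scaling.

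The negative regulators of p53 were as variable within groups as between them. Mdm2, the ubiquitin ligase gene and feedback target (chromosome 10, 117688875 to 117710758), was listed at 3551 and 6159 in cKO and at 4373 and 3847 in cHet. The cKO libraries held both the lowest and the highest value. Its log2 fold change was 0.19 (SE 0.40), 0.59 without cKO_0 and -0.21 without cKO_1. Mdm4, whose product binds p53 and blocks its activation domain, was listed at 1193 and 1836 in cKO and at 1726 and 2512 in cHet, with a log2 fold change of -0.49 (SE 0.62).

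Among the 16 p53-induced genes of growth arrest, stress and repair, 15 were tested, of which 4 had positive and 11 negative log2 fold changes, with a median of -0.61. No member passed the adjusted threshold. Cdkn1a, which encodes the Cdk inhibitor p21 and is the best known arrest target of p53 (chromosome 17, 29090976 to 29100727), was listed at 3255 and 9482 in cKO and at 13081 and 9294 in cHet. The cKO_0 value was the low one, and the cKO_1 value lay just above that of cHet_1, so the groups overlapped. The log2 fold change was -0.99 (SE 0.49, 95% interval -2.12 to 0.14; adjusted p = 0.913 in limma), and it was -0.22 without cKO_0 and -1.76 without cKO_1. The CATG pair shown above lies upstream of its distal start.

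Ei24 and Plk2 had the lowest unadjusted p of the 36 genes, in opposite directions. Ei24, a p53-induced gene whose product sits in the endoplasmic reticulum and is needed for autophagy (chromosome 9, 36779159 to 36797393), was listed at 4130 and 4441 in cKO and at 6717 and 11838 in cHet. Both cKO libraries lay below both cHet libraries, and the cHet libraries lay further apart than the groups' nearest values. Its log2 fold change was -1.06 (SE 0.37; adjusted p = 0.913 in limma), -0.65 without cHet_1. An exon of Ei24 overlaps a gene on the other strand, and the sources used here do not say whether reads were counted by strand. Plk2, a polo-like kinase gene induced by p53 and also by growth factors (chromosome 13, 110395046 to 110400844), was listed at 7061 and 7502 in cKO and at 4991 and 3383 in cHet. The groups did not overlap, with the cKO values close together. The log2 fold change was 0.82 (SE 0.35; adjusted p = 0.913 in limma), and 0.54 without cHet_1. In FPKM the Plk2 values were 35.6 and 21.7 in cKO and 25.5 and 8.94 in cHet, which overlap across the groups, but each cKO library was higher than the cHet library of the same number.

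The DNA repair genes had negative fold changes with wide intervals, except for Rrm2b. Xpc, a damage sensor of nucleotide excision repair (chromosome 6, 91489305 to 91515888), was listed at 2234 and 2119 in cKO and at 3178 and 6236 in cHet, without overlap. Its log2 fold change was -1.03 (SE 0.48; adjusted p = 0.913 in limma), and -0.55 without cHet_1. Polk, a translesion DNA polymerase gene (chromosome 13, 96480690 to 96542579), was listed at 2260 and 938 in cKO and at 1594 and 5183 in cHet. Its cHet_1 value stood above the other 3 libraries, and its log2 fold change was -0.98 with that library (SE 0.75) and -0.13 without it. Ddb2, which encodes another damage-recognition subunit, had a log2 fold change of -0.42 (SE 0.78). Rrm2b, the p53-inducible subunit of ribonucleotide reductase, was listed at 782 and 335 in cKO and at 806 and 25.1 in cHet, so its log2 fold change of 1.77 (SE 2.08) turned to -0.65 without cHet_1.

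The other stress and arrest targets gave no common direction. Trp53inp1, a p53-induced gene of cell death and autophagy (chromosome 4, 11156431 to 11174379), was listed at 4205 and 3809 in cKO and at 6930 and 5414 in cHet. The groups did not overlap, and the log2 fold change was -0.61 (SE 0.35; adjusted p = 0.913 in limma). Ccng1, encoding cyclin G1, was nearly level at 6497 and 5434 in cKO and 5081 and 5378 in cHet, with a log2 fold change of 0.18 (SE 0.32). Its groups were separated by the small step between cKO_1 and cHet_1. Sesn1 and Sesn2, which encode stress-induced sestrins that restrain mTORC1, differed by 0.07 (SE 0.43) and -0.48 (SE 0.64) on the log2 scale. That of Sesn1 was -0.13 without cHet_1, and that of Sesn2 was -0.0063 without cKO_0. Phlda3, whose product restrains AKT, had the highest mean FPKM of the 38 genes, at 61.2 and 114 in cKO and 67.4 and 130 in cHet. In scaled counts it was lower in cKO_0 and cHet_0 than in cKO_1 and cHet_1, and its log2 fold change was -0.15 (SE 0.36). Zmat3, encoding an RNA-binding protein, Aen, encoding an exonuclease of apoptotic nuclei, and Plk3, encoding a stress-responsive polo-like kinase, differed by -0.62 (SE 0.96), -0.78 (SE 0.74) and -1.07 (SE 1.45) on the log2 scale. That of Plk3 was 0.17 without cKO_0. Gdf15, the secreted stress cytokine gene, was listed at 0 in all 4 libraries.

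**Figure D2:**
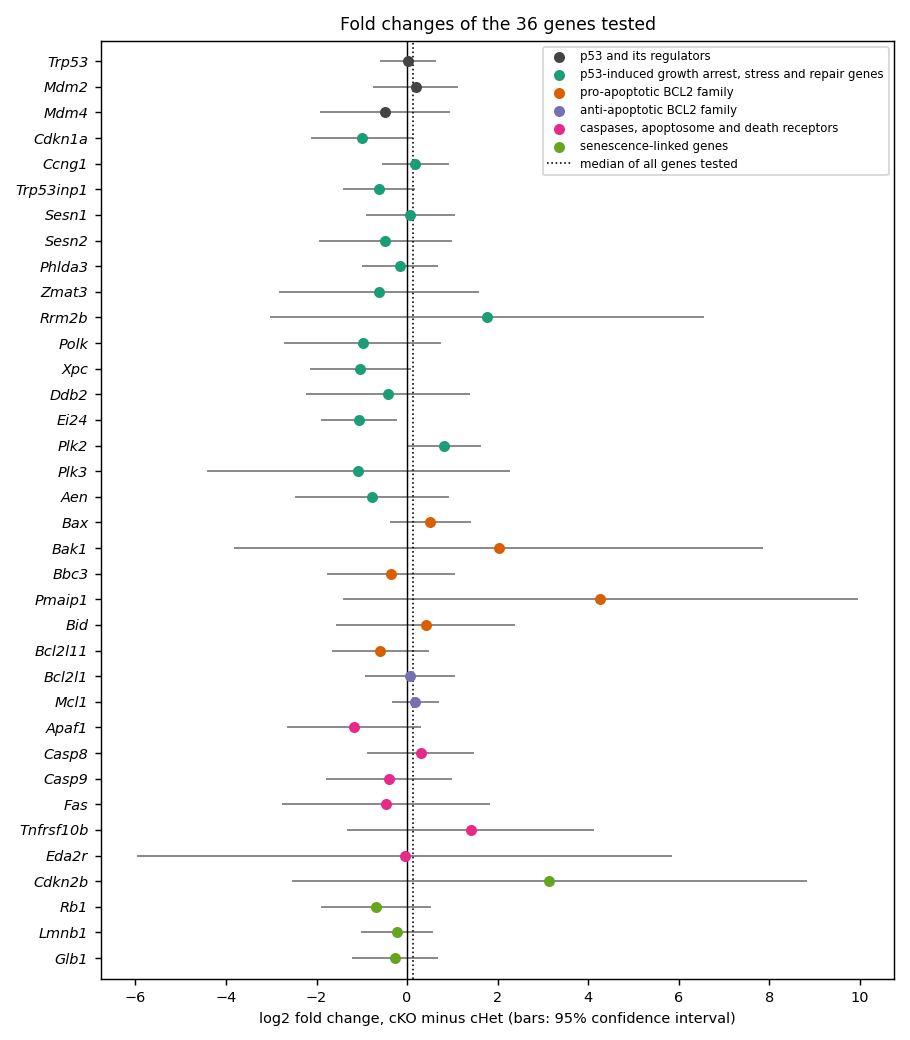
Log2 fold change (cKO minus cHet, all 4 libraries) of the 36 genes tested, coloured by role, with bars for limma's 95% confidence interval, a solid line at 0 and a dotted line at the median of all genes tested (0.12). Of the 36 intervals, that of Plk2 lies wholly above 0 and that of Ei24 wholly below it, before any adjustment for the number of genes.

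Of the 6 pro-apoptotic BCL2 genes, 4 had positive and 2 negative log2 fold changes. Bax, the effector that permeabilises the mitochondrial outer membrane and a p53 target (chromosome 7, 45461697 to 45466898), was listed at 3938 and 5062 in cKO and at 3345 and 2913 in cHet. Both cKO libraries were higher than both cHet libraries, also in FPKM, at 79.5 and 114 in cKO and 65.6 and 74.5 in cHet. The log2 fold change was 0.52 (SE 0.39, 95% interval -0.39 to 1.42; adjusted p = 0.913 in limma) and lay between 0.33 and 0.70 with each library left out in turn. Bak1, the second effector gene, was listed at 211 and 244 in cKO and at 386 and 5.23 in cHet. The cHet_1 value set its log2 fold change of 2.02 (SE 2.54), which was -0.76 without that library.

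The remaining pro-apoptotic genes encode BH3-only proteins, which trigger BAX and BAK or neutralise the protective members. Bbc3, encoding PUMA, a principal p53 killer target (chromosome 7, 16308393 to 16318205), was listed at 2111 and 1212 in cKO and at 1804 and 2320 in cHet. The groups overlapped, with a log2 fold change of -0.35 (SE 0.62; adjusted p = 0.957 in limma) that was 0.04 without cKO_1. Pmaip1, encoding NOXA (chromosome 18, 66458533 to 66465565), was scarce, at 196 and 309 in cKO and at 38.1 and 1.05 in cHet. Both cKO libraries were higher than both cHet libraries, and FPKM was 1.14 and 0.532 in cKO and 0.230 and 0.00158 in cHet. Its log2 fold change of 4.27 (SE 2.47; adjusted p = 0.913 in limma) was the highest of the 36, was 2.60 without cHet_1 and depends on the pseudocount at these levels (3.48 with 10). Bid, which links death receptors to mitochondria, had a log2 fold change of 0.41 (SE 0.86) that was -0.02 without cKO_0. Bcl2l11, encoding BIM, was listed at 2217 and 2036 in cKO and at 2943 and 3478 in cHet, without overlap, with a log2 fold change of -0.59 (SE 0.47).

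Both anti-apoptotic genes were well expressed. Mcl1, a short-lived guardian of mitochondria, had the highest scaled counts of the 38 genes, at 27235 and 30294 in cKO and at 24037 and 26638 in cHet. Its groups did not overlap, but the gap between them was small, with a log2 fold change of 0.18 (SE 0.23, 95% interval -0.34 to 0.71). Bcl2l1, encoding BCL-XL, was listed at 3703 and 4366 in cKO and at 5192 and 2822 in cHet. Its cKO values lay between the cHet values, with a log2 fold change of 0.07 (SE 0.43) that was -0.03 with median-of-ratios scaling.

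Of the 6 genes for caspases, the apoptosome and death receptors, 2 had positive and 4 negative log2 fold changes. Apaf1, the scaffold of the apoptosome (chromosome 10, 90989311 to 91082770), had the most negative value of the 36, -1.17 (SE 0.64; adjusted p = 0.913 in limma). It was listed at 2174 and 1275 in cKO and at 2173 and 6469 in cHet. The high cHet_1 value set this difference, since cKO_0 and cHet_0 were level and the fold change was -0.38 without cHet_1. Casp9, the caspase that the apoptosome activates, was also highest in cHet_1, at 2740 and 1619 in cKO and at 1797 and 4286 in cHet, with a log2 fold change of -0.40 (SE 0.60) that turned to 0.23 without cHet_1. Casp8, the initiator caspase of death receptors, had a log2 fold change of 0.30 (SE 0.52).

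The p53-regulated death receptor genes differed from each other. Tnfrsf10b, the mouse TRAIL receptor gene, was listed at 923 and 1011 in cKO and at 428 and 309 in cHet. Both cKO libraries were higher than both cHet libraries, also in FPKM, at 4.31 and 2.12 in cKO and 2.01 and 0.628 in cHet. The log2 fold change was 1.40 (SE 1.18; adjusted p = 0.913 in limma), and it lay between 1.17 and 1.64 with each library left out in turn. Fas was listed at 714 and 629 in cKO and at 853 and 997 in cHet, without overlap, with a log2 fold change of -0.46 (SE 0.997). Eda2r, the ectodysplasin A2 receptor gene and a p53 target, was scarce, at 20.5 and 2.27 in cKO and at 41.3 and 0 in cHet.

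Senescence-linked genes gave no call in either direction. Cdkn2a, whose locus encodes p16INK4a and p19ARF from different first exons (chromosome 4, 89274471 to 89294653), was listed at 6.46 and 0 in cKO and at 0 and 0 in cHet. It did not pass the filter, and a gene-level value does not separate its transcripts. Its neighbour Cdkn2b, encoding p15INK4b, was listed at 305 and 773 in cKO and at 425 and 4.19 in cHet. The cKO_0 value lay below that of cHet_0, and the log2 fold change of 3.14 (SE 2.47) was 0.19 without cHet_1. Rb1, encoding the retinoblastoma protein (chromosome 14, 73183673 to 73325822), was listed at 2254 and 3645 in cKO and at 2958 and 7146 in cHet. The groups overlapped, and its log2 fold change of -0.68 (SE 0.53; adjusted p = 0.913 in limma) was -0.05 without cHet_1.

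The usual tissue signs of senescence are less nuclear lamin B1 and more lysosomal beta-galactosidase. Lmnb1, the lamin B1 gene, was listed at 8579 and 5168 in cKO and at 8274 and 7217 in cHet. Its cKO libraries held the highest and the lowest value, and the log2 fold change was -0.21 (SE 0.34, 95% interval -1.01 to 0.58), and 0.15 without cKO_1. Glb1, the beta-galactosidase gene, was listed at 3257 and 3334 in cKO and at 4881 and 3227 in cHet, with a log2 fold change of -0.27 (SE 0.41) that was 0.03 without cHet_0.

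Single libraries decided several of these values. Of the 36 genes, 3 (Rrm2b, Bak1 and Cdkn2b) lay under 50 in cHet_1 with at least 200 in each other library, beside 7.60% of all genes tested. In cKO_0, cKO_1 and cHet_0 0 of the 36 did so, beside 0.315%, 0.413% and 0.0560% of all genes. In cHet_1 16 of the 36 genes had the highest of their 4 values, against 4, 7 and 9 in cKO_0, cKO_1 and cHet_0. The lowest value fell in cHet_1 for 11 genes, beside 8, 12 and 5 in cKO_0, cKO_1 and cHet_0. These shares were not counted over all genes. The sign of the log2 fold change turned for 14 of the 36 genes when some library was left out (Trp53, Mdm2, Sesn1, Phlda3, Rrm2b, Plk3, Bak1, Bbc3, Bid, Bcl2l1, Casp9, Eda2r, Lmnb1 and Glb1). It cannot turn for the 11 genes whose groups did not overlap, so their signs say nothing of stability.

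**Figure D3:**
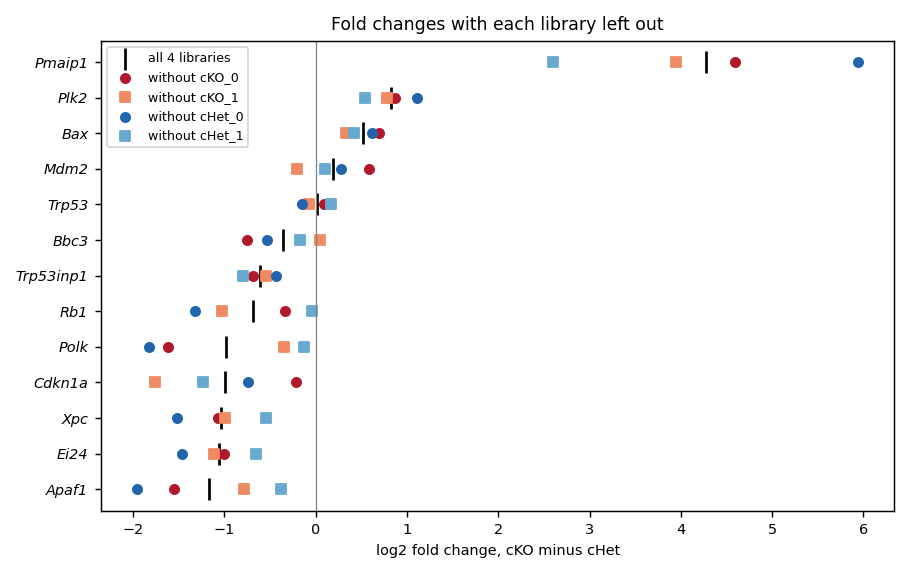
Log2 fold change (cKO minus cHet) of the 13 named genes that were tested, with all 4 libraries (black bar) and without each library (coloured points). Trp53, Mdm2 and Bbc3 cross 0. Cdkn1a, Apaf1, Polk and Rb1 do not, and for Bax, Plk2, Pmaip1, Trp53inp1, Xpc and Ei24, whose groups do not overlap, the sign cannot turn.

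FPKM and scaled counts ordered the libraries differently for many of these genes. For the 31 genes that reached a scaled count of 100 in every library, the FPKM per scaled count in cKO_0 was 0.827 to 1.06 times that in cHet_0 (median 0.999). In cKO_1 it was 0.259 to 1.21 times (median 0.497), and in cHet_1 0.223 to 1.35 times (median 0.486). The libraries numbered 1 in the tables thus shared a shift that differed from gene to gene, and each group holds 1 of them. Over all 9933 such genes the medians were 0.996, 0.609 and 0.566 in the same order. Trp53inp1 had the lowest ratio in both libraries, so that its FPKM was 11.6 and 2.84 in cKO and 20.0 and 3.48 in cHet, although its scaled counts differed much less within groups. Across the 31 genes the ratio was lower for genes with more annotated exon bases (Spearman's rho -0.54 in cKO_1, -0.53 in cHet_1 and -0.42 in cKO_0, as a description across genes of the same libraries). The sources used here do not say how transcript lengths entered the FPKM, and the cause was not tested. Of the 11 genes whose groups did not overlap in scaled counts, 10 passed the FPKM filter (at least 1 in 2 or more libraries), and 4 of these did not overlap in FPKM either, Bax and Tnfrsf10b higher and Ei24 and Xpc lower in cKO. Pmaip1, below that filter, did not overlap in FPKM and was higher in cKO. Set against the cHet library of the same number, which shares the shift, each cKO library kept the scaled-count direction in FPKM for all 11. This was largely fixed beforehand. The 11 genes were picked by their scaled counts, and FPKM per scaled count was similar in same-numbered libraries. Apaf1, which overlapped in scaled counts by a narrow margin, was lower in cKO without overlap in FPKM.

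**Figure D4:**
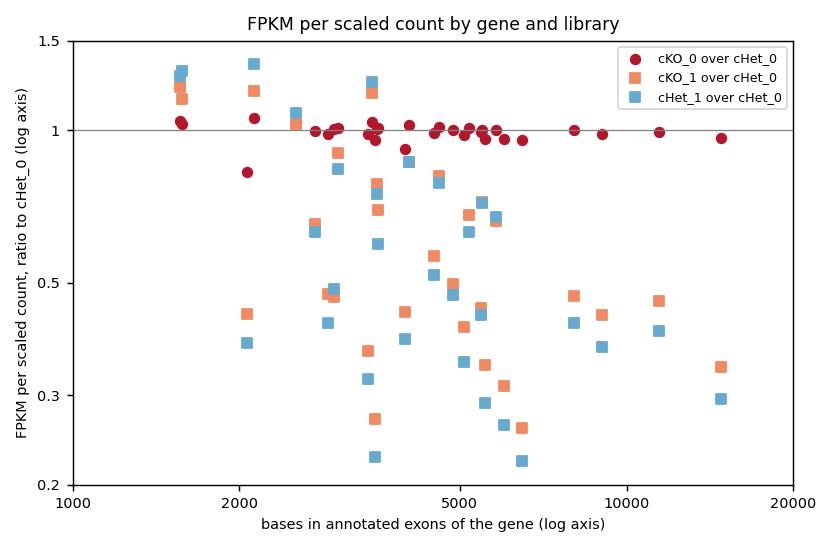
FPKM per scaled count in cKO_0, cKO_1 and cHet_1 as a ratio to cHet_0 (log axis), for 31 of the genes, against the annotated exon bases of each gene (log axis). The cKO_0 points lie near 1 (median 0.999), whereas the cKO_1 and cHet_1 points lie close to each other for each gene and reach down to 0.259 and 0.223.

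Other genes of the same pathways, taken from lists separate from the 38, gave no call either. Of 28 further p53 targets, all tested, 20 had positive and 8 negative log2 fold changes (median 0.54), beside 56.3% positive and a median of 0.12 over all genes, and 0 passed the adjusted threshold. The groups did not overlap for 8 higher and 3 lower of the 28, beside 18.0% and 14.2% of all genes. The lowest p among them belonged to Btg2, an antiproliferative and immediate early gene, at 36555 and 65083 in cKO and 31715 and 18181 in cHet (log2 fold change 1.02, SE 0.36), and Hic1, a transcriptional repressor gene, at 6087 and 8078 in cKO and 3732 and 3576 in cHet (0.94, SE 0.34). Part of the positive side rests on low cHet_1 values. Gtse1 stood at 680 in cHet_0 and 10.5 in cHet_1, and Gadd45a at 686 and 10.5. Lrdd stood at 568 and 3.14, and Ddit4l at 1578 and 13.6. Others were higher in cHet_1, such as Perp at 15649 and 28492 and Fdxr at 1037 and 2437. The directions were not counted without cHet_1. The further targets and the 15 tested arrest, stress and repair genes above had medians of opposite sign, and their difference was not tested. Of 18 further p53 regulators, 11 had positive and 7 negative values (median 0.04), and 0 passed. Lowest in p were Chek2 and Trp63. Chek2, a checkpoint kinase gene, was listed at 491 and 1002 in cKO and at 649 and 9.42 in cHet, so that its log2 fold change of 2.97 (SE 2.25) rests on the low cHet_1 value. Trp63, the epithelial p53 relative, was listed at 4080 and 14630 in cKO and at 9680 and 14915 in cHet, so that its log2 fold change of -0.64 (SE 0.55) rests on the low cKO_0 value.

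Of 26 further apoptosis genes tested out of 28, 14 had positive and 12 negative log2 fold changes (median 0.04), and 0 passed. Birc2, an inhibitor of apoptosis gene, was listed at 2345 and 662 in cKO and at 2641 and 6525 in cHet, a log2 fold change of -1.73 (SE 0.75; adjusted p = 0.913 in limma). Bok, a BAX-like effector gene, was listed at 4014 and 4852 in cKO and at 3411 and 1493 in cHet, a log2 fold change of 0.97 (SE 0.51). Among 6 further Cdk inhibitor and Rb family genes, 0 passed and the lowest p belonged to Cdkn1b, encoding p27, and Rbl2, encoding p130 (log2 fold changes 0.66, SE 0.81, and -0.24, SE 0.38).

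Of 18 genes of the senescence-associated secretory programme, 12 were tested, with 5 positive and 7 negative log2 fold changes (median -0.19), and 0 passed. Igfbp3, which is also in the list of p53 targets, was listed at 212912 and 194102 in cKO and at 142866 and 108285 in cHet (log2 fold change 0.71, SE 0.27). Igfbp7 was listed at 19206 and 24424 in cKO and at 14736 and 16389 in cHet (0.48, SE 0.25).

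Several measures of cell make-up differed between groups or libraries, and their part in the values above was not tested. Sums are shares of all scaled counts, and the values beside single genes are log2 fold changes. Proliferation genes (27 tested, 18 positive and 9 negative, median 0.14, 0 passed) summed to 0.205% and 0.145% in cKO and 0.181% and 0.126% in cHet. The lowest p among them belonged to Cdk1 and Mcm7 (log2 fold changes 3.79, SE 1.82, and 0.90, SE 0.47), and Cdk1, the mitotic kinase gene, was at 23.0 in cHet_1 against 1926 to 3210 in the other libraries. The 8 follicle and mesenchyme markers were present in every library and summed to 6.35% and 6.01% in cKO and 8.58% and 9.18% in cHet. Col1a1 and Col3a1 made up most of each sum, so it says little of the other markers. Of the 8, 1 had a positive and 7 a negative log2 fold change (median -0.34). Dcn and Postn, with the lowest p of the 8, differed by -1.24 (SE 0.23) and -1.03 (SE 0.29) on the log2 scale. Pthlh, Col3a1 and Prrx1 differed by -0.24 (SE 0.34), -0.23 (SE 0.56) and -0.24 (SE 0.29), and Runx2 by 0.05 (SE 0.24), each with overlapping groups. The 8 dental epithelium markers, of which Epcam (-2.12, SE 0.68) and Ambn (1.25, SE 0.56) had the lowest p, summed to 1.40% and 3.87% in cKO and 0.859% and 2.10% in cHet. The enamel matrix genes Ambn and Amelx made up most of each sum. Of the 8 epithelial markers, 3 had positive and 5 negative log2 fold changes (median -0.18), among them Cdh1 at -1.30 (SE 0.69) and Amelx at 0.90 (SE 0.60).

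The 4 odontoblast markers summed to 0.00814% and 0.0251% in cKO and 0.0801% and 0.111% in cHet, with Phex at -4.11 (SE 1.11) and Dspp at -4.91 (SE 1.39). Dspp made up most of the cHet_1 sum. All 4 had negative log2 fold changes, but the groups of Dmp1 and Nes overlapped. Dmp1 (-2.01, SE 1.20) stood at 478 and 3341 in cKO and at 16999 and 1534 in cHet. Nes (-0.30, SE 0.38) stood at 4866 and 4790 in cKO and at 7849 and 4515 in cHet. The 6 Schwann cell markers summed to 0.00979% and 0.0321% in cKO and 0.00434% and 0.000964% in cHet, led by S100b (2.26, SE 0.76) and Prx (3.59, SE 1.39). The 6 endothelial markers summed to 0.00406% and 0.0120% in cKO and 0.00315% and 0.00807% in cHet, with Pecam1 at 6.97 (SE 2.41, a fitted value, since it was listed at 0 in cHet_0) and Cdh5 at 3.53 (SE 1.91) lowest in p. Of the 5 tested, 4 were positive and 1 negative: Kdr stood at 1944 and 3145 in cKO and at 1900 and 4054 in cHet (-0.17, SE 0.56), and Tie1 differed by 0.22 (SE 3.53). Emcn was at 0 in cKO_0. The 6 leukocyte markers were at or under 0.00512% in every library, and the leukocyte marker Ptprc stood at 62.5 and 76.0 in cKO and at 0.810 and 0 in cHet, while Emr1 stood at 0 and 2.27 in cKO and at 36.4 and 203 in cHet, and Fcer1g was at 0 in cHet_1. Dissociation and immediate early genes, which include Btg2 and Klf2 (0.84, SE 0.30), summed to 1.41% and 2.28% in cKO and 1.36% and 1.38% in cHet. Of these 15 genes, all tested, 14 had positive and 1 a negative log2 fold change (median 0.43), beside 56.3% positive over all genes. The groups did not overlap for 5 higher and 0 lower, beside 18.0% and 14.2% of all genes, and 0 passed the adjusted threshold.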

How the data were processed

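Messenger RNA was measured in 4 libraries of sorted tdTomato-positive dental follicle cells, 2 per group. Per the labels' protocols, RNA was isolated with a PicoPure kit, amplified with SMART-Seq v4 and made into libraries with Nextera XT. The submitters' processing notes name mm10, TopHat2 (2.0.13) with Bowtie2 (2.2.1), HTSeq, DESeq2, Cuffdiff, Cufflinks and FastQC, and assign none of them a role. The main values are the signal the authors deposited as scaled counts, with no statement of how they were scaled. Because these values are scaled and not raw counts, no count test was run. The FPKM values were deposited by the authors as well and served as an alternative. A further 16 columns in 4 tables match no label and were not used. Libraries are numbered from 0 in the tables and from 1 in the sample titles, which is why a column was tied to its group and to no single sample.

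Log2(scaled count + 3) was modelled in limma 3.58.1 under R 4.3.3 with group as the only term and the variance trend on, over genes that reached 10 in 2 or more libraries. P-values are two-sided and adjusted over all genes tested by the Benjamini-Hochberg method, with 0.05 as threshold; intervals are limma's at 95%. The fit was also run on simulated data, where recovery of changed genes was required only at a spread far below that between these libraries. That run does not show what the fit can detect at the spread of these libraries. Values in every library were planned for Trp53, Cdkn1a, Cdkn2a, Mdm2, Bax and Bbc3. They were also planned for the 10 tested genes of the 38 with the lowest p and those with the highest and lowest fold change. From each other list, up to 2 tested genes of lowest p were to be named, not always with values in every library. Further genes are given in full because of their roles. The members and all gene lists were chosen with earlier results of these data known. Gene coordinates are from GENCODE vM21 and sequences from RefSeq, both on the GRCm38 assembly that mm10 names. Exons of 9 of the 38 genes (Bak1, Bid, Casp9, Cdkn1a, Ddb2, Ei24, Plk3, Rb1 and Rrm2b) overlap a gene on the other strand, and those of Bax and Glb1 a gene on the same strand, so reads of these may be shared. Scaled totals ran from 69361760 to 71228342, but the sources used here do not state the depth in reads. Precision rests on the spread between libraries (median SE 0.74 log2 units over all genes, 0.57 over the 36). Alternatives were other pseudocounts, filters, scaling, FPKM, library weights, a replicate block and leaving out each library. The result of 1 marker list is not reported here.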

Additional observations from a re-analysis of the deposited data

How the results depend on the processing

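In the alternatives run, 0 of the 38 genes were called in either direction. Over all genes, 3 were called higher and 4 lower with log2(FPKM + 1), and 1 and 1 with log2(FPKM + 0.1). With each library left out in turn, the calls over all genes ran from 0 to 1061 higher and from 0 to 78 lower, with the most calls without cHet_0; limma then assumes that the lone library of a group varies like the others. With a library left out, 8 to 13 of the 36 genes tested were higher and 12 to 17 lower without overlap. Fewer libraries raise these counts by themselves. Of the 34 genes that passed the FPKM filter, 2 were higher and 3 lower without overlap, with either pseudocount (Pmaip1, below it, was also higher). With median-of-ratios scaling, 4 of the 36 were higher and 9 lower without overlap, against 6 and 5 with the deposited scaling. The share over all genes was not counted under these alternatives, so these counts have no background beside them. The median log2 fold change of the 36 was -0.35 with median-of-ratios scaling and ran from -0.29 to -0.0773 over the libraries left out. It was -0.38 among those with a mean of at least 1000. Trp53 turned to -0.0936 with median-of-ratios scaling and ran from -0.14 to 0.17 over the libraries left out, Mdm2 from -0.21 to 0.59 and Bbc3 from -0.75 to 0.0448. Of 166 values of the 13 tested named genes under the alternatives, 161 kept their sign and side of the threshold. That count does not measure stability, because several alternatives return the same or nearly the same fold change by construction. For the named genes whose groups did not overlap, leaving out a library cannot turn the sign. The cause of the shifts between settings was not tested. With a replicate block on the column numbers, 0 genes were called in each direction, 0 of them among the 38, and the median was -0.24. Those numbers are not shown to pair libraries: deviations of same-numbered libraries correlated at 0.0486 over 14297 genes in scaled counts, although FPKM per scaled count shifted with the number. With 2 libraries a group, the spread between libraries limits what can be seen.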
